A study of Ursus arctos with 5 samples.

Results

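TFRC and HMOX1, the genes of the transferrin receptor and of heme oxygenase 1, were followed in gastrocnemius muscle of grizzly bears (Ursus arctos) before and during hibernation. Members were all transcripts that carry either gene name in the deposited table, which gave 2 transcripts of 26614 listed, and 2 genes of the 4873 named. TFRC was assembled as isotig20718 of 5180 bases (human gene ENSG00000072274) and HMOX1 as isotig24603 of 1608 bases (ENSG00000100292). Both were selected on their RPKM change between the states in these same libraries, so that change is described here without a test.

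The active state was sampled in October and the hibernating state in February, in the same 2 captive bears, a subadult and an adult, with 1 single-end Illumina library per bear and state. Feeding ended in early November, and the anaesthetic dose for the biopsy was higher in active than in hibernating bears, so season, fasting, inactivity and anaesthesia cannot be told apart. The sample labels give an age of 10 years throughout, whereas the study speaks of a subadult and an adult, and the separation of the bears rests on the column names of the table. Levels are RPKM, the reads of a transcript scaled by its length and by all aligned reads of the library. A change, or log2 change, is the log2(RPKM + 0.5) of a bear in hibernation less that of the same bear when active. Aligned reads were 44.6 to 54.2 M (mega) per library, as estimated from the spacing of low values. Of 11 muscle fibre markers, 4 could be read, and MYH1, MYH2 and MYH7 stood at 1295 to 7801 RPKM. The active subadult library stood apart by high levels of lipid synthesis genes and of some matrix genes, which are given beside the results they touch.

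Iron reaches most cells bound to transferrin, which the transferrin receptor carries into endosomes, where the iron is reduced and released to the cytosol. When iron is scarce, the iron regulatory proteins ACO1 and IREB2 bind the TFRC mRNA and slow its decay, so that the level of this mRNA follows the iron status of a cell in many tissues. Heme, made in mitochondria in a route whose first enzyme is ALAS1, is opened by heme oxygenase to biliverdin, carbon monoxide and iron. HMOX1 is the inducible form of that enzyme, raised by heme and by oxidative stress and high in macrophages that clear red cells. In muscle, iron and heme serve myoglobin and the cytochromes of the respiratory chain.

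TFRC was about 4-fold lower in hibernation in both bears. Its level was 64.9 RPKM in the active and 15.7 RPKM in the hibernating subadult. In the adult it was 16.8 RPKM when active and 4.30 RPKM in hibernation. Both hibernating libraries thus lay below both active ones, but by a narrow margin, since the hibernating subadult stood just under the active adult. The active level was 4.15 times the hibernating one in the subadult (95% counting interval 4.01 to 4.29) and 3.91 times in the adult (3.67 to 4.18). On the log2 scale the changes were -2.02 and -1.85, a mean of -1.93 ± 0.12 (SD, n = 2 bears).

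The bears differed in TFRC by nearly as much as the states did. The subadult held 3.86 times the level of the adult when active and 3.64 times in hibernation, so the distance between the animals was similar in both states. Between 1206 and 17656 reads stood behind each value, and intervals from them are exact binomial and cover counting error only. Among named genes, each by its transcript with the most reads, the level of TFRC stood at the 95.4th percentile in the active subadult, the 84.6th in the active adult, the 82.0th in the hibernating subadult and the 42.5th in the hibernating adult. Mean changes of only 5 of the 9093 named transcripts were lower than that of TFRC. ARID5B, a DNA-binding transcription regulator, was the only other named transcript whose log2 change was at -1.85 or below in both bears. Its changes were -2.27 in the subadult and -1.93 in the adult. The cutoff of -1.85 is the adult change of TFRC itself, so this short list belongs to the choice of TFRC. SCD, at -5.05 in the subadult and -1.69 in the adult, missed it narrowly. A level at least 2-fold lower in hibernation in both bears was found for 20 named genes (0.41%), TFRC among them, and both hibernating libraries lay below both active ones for 395 named genes (8.11%).

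HMOX1 was higher in hibernation, with nearly all of the difference in the adult. Its level was 6.39 RPKM in the active and 25.2 RPKM in the hibernating adult. In the subadult it was 10.4 RPKM when active and 11.5 RPKM in hibernation. The hibernating adult therefore stood apart from the other 3 libraries, which lay at 6.39 to 11.5 RPKM, with the active adult lowest. In the adult the hibernating level was 3.94 times the active one (95% counting interval 3.56 to 4.36), and in the subadult 1.10 times (1.00 to 1.21). The log2 changes were 1.90 and 0.13, a mean of 1.01 ± 1.25 (SD, n = 2 bears), so the mean was smaller than the spread between the bears.

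Without the hibernating adult, a choice made after seeing the data, the HMOX1 difference was 0.46 on the log2 scale. As deposited, both hibernating libraries lay above both active ones for HMOX1, as they did for 35.8% of named genes. With libraries scaled by their upper quartile, the change in the subadult was -0.01 and the states overlapped. With scaling by the median ratio it was 0.02, and the change in the adult was 1.69 to 1.74 under both scalings. Of the named transcripts, 10 had a change in the adult as large as that of HMOX1 or larger, HMOX1 included. Reads behind the HMOX1 values numbered 459 to 2192.

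**Figure D1:**
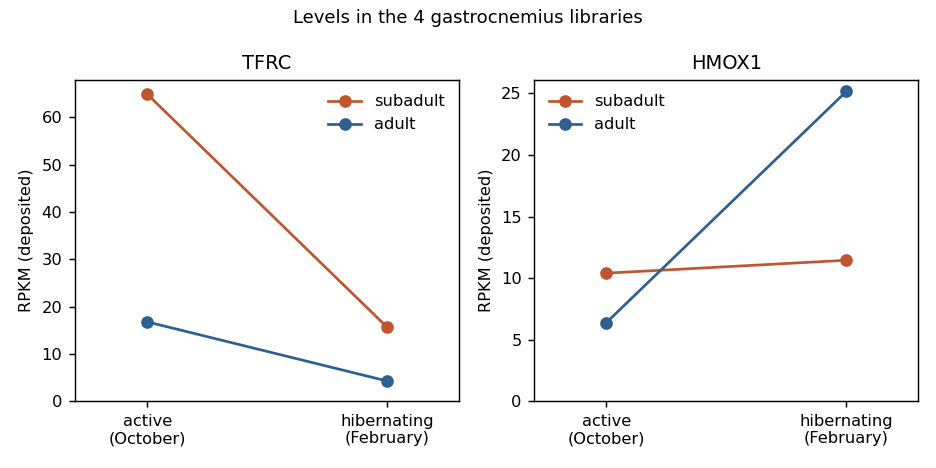
Deposited RPKM of TFRC (left) and HMOX1 (right) in the active (October) and hibernating (February) library of each bear, with a line joining the libraries of a bear. TFRC was lower in hibernation in both bears, from 64.9 to 15.7 RPKM and from 16.8 to 4.30 RPKM, while HMOX1 went from 6.39 to 25.2 RPKM in the adult and from 10.4 to 11.5 RPKM in the subadult.

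Whether the cDNA had been normalized with a nuclease, which lowers abundant sequences and would narrow differences in RPKM, is not given in the sources used here, and the folds and ratios printed hold for the RPKM as deposited. Since RPKM is scaled to transcript length, the level of the receptor can be set against that of the oxygenase within a library. TFRC exceeded HMOX1 in 3 of the 4 libraries, 6.24-fold in the active subadult, 2.63-fold in the active adult and 1.37-fold in the hibernating subadult. In the hibernating adult the order was turned, with HMOX1 at 5.85 times the level of TFRC.

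Other genes of iron and heme handling were taken from 9 lists of 156 further genes, of which 57 had a named transcript and 99 were not analysed here. Because the table holds only transcripts at 1 RPKM or more in all 4 libraries, a gene below that level in a single library was out of reach. Only 9093 of the 26614 listed transcripts carried a gene name, so a gene could also be missed for lack of a name. Transferrin (TF), the ferritin genes FTH1 and FTL, the second heme oxygenase HMOX2 and ferrochelatase (FECH) were among the genes not analysed. The reason for each was not tested. Each gene is given by its transcript with the most reads. Limma compared both hibernating with both active libraries, without a term for the bear. None of the 57 passed an adjusted p of 0.05 (lowest adjusted p = 0.577 over 26614 transcripts), and 5 had an unadjusted p under 0.05. In that test 0 of the 26614 transcripts were called (0%), and 2237 had an unadjusted p under 0.05. Without the hibernating adult it called 35 transcripts of the 26614.

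A second measure, a score modelled on NOISeq, sets the change of a transcript against noise, taken as the gaps between the animals in the same state over all transcripts. It is the part of this noise that is no larger than the change, both as a log ratio and as a difference in RPKM. It was 0.974 for TFRC and 0.883 for HMOX1, values that belong to the choice of these genes. Of the 57 other genes, 4 reached 0.8, against 3.98% of all named genes, and these were ALAS1, PFKFB3, EXOC6 and CYGB. Both hibernating libraries lay above both active ones for 17 of the 57, where 35.8% of named genes did so, and below them for 5 of the 57, where 8.11% did. Of the 57, 22 were higher in both bears (48.7% of all named genes), 12 were lower in both (16.1%) and 23 differed in direction. The median of their mean log2 changes was 0.03, against 0.15 over all named genes (0.13 for the subadult, 0.17 for the adult). Scaling by the median ratio or the upper quartile left 10 of the 57 above and 15 below. Of all named genes, 20.4% lay above and 17.1% below by median ratio, and 22.5% and 15.8% by upper quartile. Of the 57, only ALAS1 and PFKFB3 reached a score of 0.8 under these scalings. In both bears EXOC6, NCOA4, SLC40A1, HIF1A, COX15, SRXN1, CYGB, ALAS1, ALAD, BLVRB and PFKFB3 kept their direction under both scalings.

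**Figure D2:**
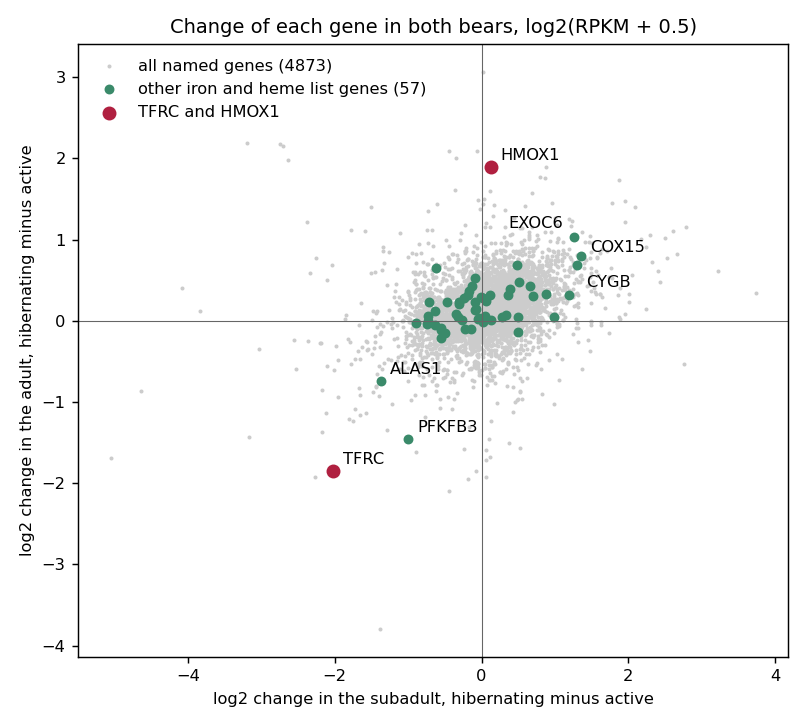
Log2 change from active to hibernating in the subadult (x axis) and the adult (y axis) for all 4873 named genes (grey), the 57 other iron and heme list genes (green) and TFRC and HMOX1 (red). TFRC lies at -2.02 and -1.85, low in both bears, and HMOX1 at 0.13 and 1.90, near the vertical zero line.

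Around the receptor, the transferrin cycle showed no common direction. EXOC6, a subunit of the exocyst that helps recycle transferrin receptor vesicles, was higher in hibernation, at 6.31 against 2.36 RPKM in the subadult and 3.83 against 1.62 RPKM in the adult. Limma gave it a log2 fold change of 1.14 ± 0.33 (standard error) with an adjusted p of 0.577, from a short transcript of 525 bases with 38 to 166 reads per library. SNX3, a sorting nexin that returns the receptor from endosomes, had 36.7 to 38.5 RPKM in the 4 libraries. Hemojuvelin (HFE2), a coreceptor that acts in iron regulation and is made in skeletal muscle, had opposite orders in the animals. The subadult had 19.1 RPKM when active and 12.2 in hibernation, the adult 18.9 and 30.1 RPKM. STEAP4, of the family of metalloreductases that act on iron, stood at 1.33 to 2.72 RPKM with log2 changes of -0.47 (subadult) and 0.23 (adult). Of the 5 other genes of this list with a transcript, 1 was higher in both bears (48.7% of all named genes). Lower in both were 0 (16.1%), and 4 differed in direction.

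For storage and export, 3 of 11 genes could be read. NCOA4, the receptor that delivers ferritin to autophagy, had 194 RPKM in the hibernating and 120 RPKM in the active subadult, and 152 against 122 RPKM in the adult. SLC40A1, ferroportin and the known iron exporter of cells, had 11.3 against 8.71 RPKM in the subadult and 10.6 against 8.36 RPKM in the adult. For both genes the hibernating libraries lay above the active ones, also under both scalings, with limma adjusted p of 0.607 and 0.671. PCBP1, a cytosolic iron chaperone, differed little, with log2 changes of -0.15 (subadult) and -0.10 (adult).

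Among sensors of iron and oxygen, both iron regulatory proteins were nearly level in their transcripts with the most reads. IREB2 stood at 45.2 to 47.8 RPKM and ACO1 at 11.1 to 13.9 RPKM over the 4 libraries. Of 3 IREB2 transcripts, 1 was higher and 2 were lower in hibernation in both bears. Under both scalings the IREB2 transcript with the most reads had changes of -0.19 to -0.10. The values are mRNA levels, and the binding activity of the proteins was not measured. HIF1A, a subunit of the hypoxia-inducible factor that can act on both TFRC and HMOX1, had 5.59 against 3.87 RPKM in the subadult and 4.48 against 2.60 RPKM in the adult, hibernating against active. Of its 12 transcripts, 10 were higher in hibernation in both bears, though transcripts of 1 gene are not independent measures. The other 2 were higher in the subadult and lower in the adult, where their changes were -0.12 and -0.13. EPAS1, a paralog of HIF1A, had log2 changes of -0.32 (subadult) and 0.04 (adult), and EGLN1, a prolyl hydroxylase that marks these factors for decay, 0.50 and 0.05. Of the 8 genes read, 4 were higher in both bears (48.7% of all named genes), 0 were lower in both (16.1%) and 4 differed in direction. Limma's adjusted p was 0.597 or more for all 8 genes of this list.

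ALAS1, which catalyses the first and rate-limiting step of heme synthesis outside red cells, was lower in hibernation. It had 84.8 RPKM in the active and 32.5 RPKM in the hibernating subadult, and 36.0 and 21.4 RPKM in the active and hibernating adult. All hibernating values lay below all active ones, and as for TFRC the active subadult held the highest level. Against the active adult alone, both hibernating values were still lower. The active level was 2.60 times the hibernating one in the subadult (95% counting interval 2.51 to 2.71) and 1.68 times in the adult (1.60 to 1.77). Limma gave a log2 fold change of -1.05 ± 0.44 (standard error) with an adjusted p of 0.592, and the score was 0.922.

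Of the later enzymes, ALAD and CPOX differed less than ALAS1. ALAD, the second enzyme, had log2 changes of -0.55 (subadult) and -0.21 (adult), and 2 of its 3 transcripts were lower in both bears. CPOX, an enzyme of the late steps, had changes of -0.23 and -0.10 in the same order. COX15, which makes heme A for cytochrome oxidase, was higher in hibernation, at 3.83 against 1.19 RPKM in the subadult and 2.68 against 1.32 RPKM in the adult. Its transcript had 558 bases and 33 to 107 reads per library. SLC25A28, a mitochondrial iron importer, had 8.95 against 4.28 RPKM in the subadult and 8.75 against 8.43 RPKM in the adult, so its difference was in the subadult. Of the 12 genes read in this list, 4 were higher in both bears (48.7% of all named genes). Lower in both were 3 (16.1%), and 5 differed in direction.

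Next to HMOX1 in the breakdown of heme stands BLVRB, a biliverdin reductase. It had 25.2 RPKM in the active and 13.3 RPKM in the hibernating subadult, while the adult had 17.1 RPKM when active and 16.8 in hibernation, so it was not higher in the adult where HMOX1 was. Both hibernating values of this BLVRB transcript lay below both active ones, narrowly so in the adult (limma adjusted p = 0.653). A second BLVRB transcript, of 461 bases, overlapped between the states, with changes of -0.70 (subadult) and 0.10 (adult). HEBP1, a heme-binding protein, had log2 changes of 0.11 (subadult) and 0.32 (adult). POR, the reductase that supplies electrons to heme oxygenase, was read by a fragment of 398 bases at 1.44 to 2.88 RPKM. Its changes were 0.01 (subadult) and 0.03 (adult).

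**Figure D3:**
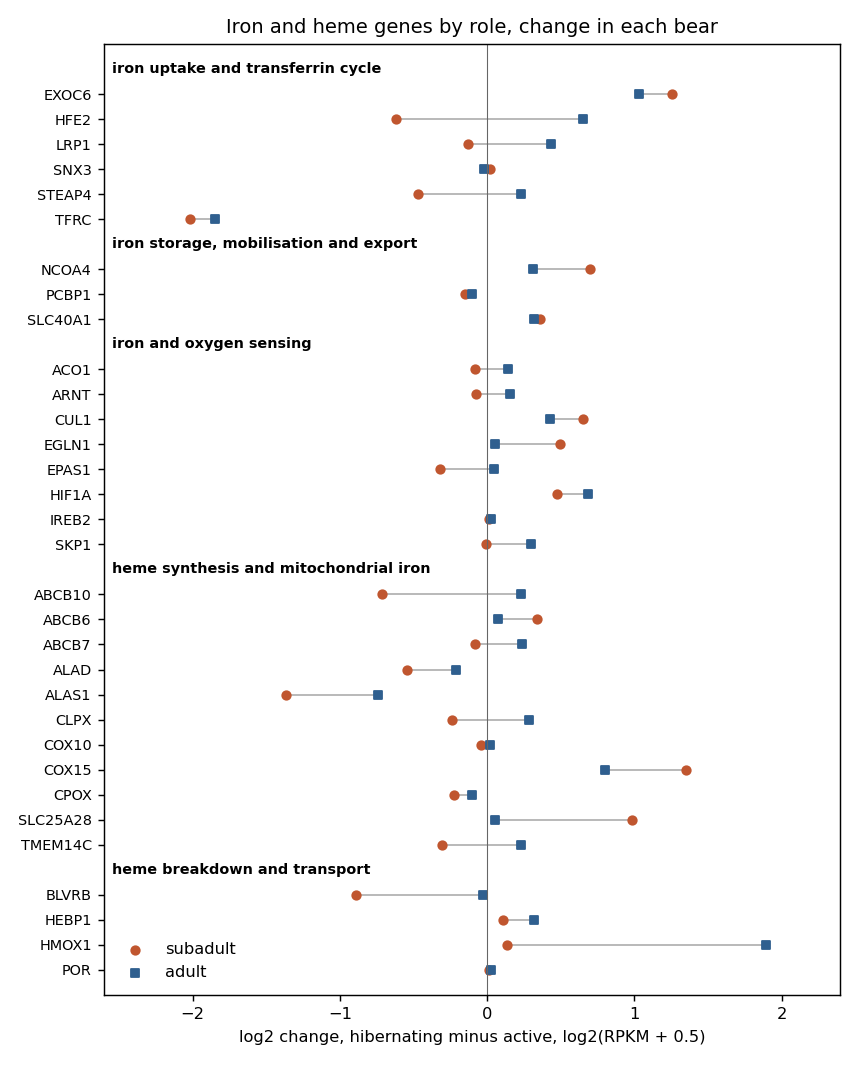
Log2 change from active to hibernating of TFRC, HMOX1 and the other genes reported from 5 lists, ordered by role, with a circle for the subadult and a square for the adult. TFRC and ALAS1 are lower in both bears, EXOC6 and COX15 higher in both, and the gap between the bears is widest for HMOX1, at 0.13 and 1.90.

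Genes that share a regulator with HMOX1 or TFRC were few. Of 15 genes of the NRF2 and BACH1 axis, which controls HMOX1 in oxidative stress, 3 could be read. SRXN1, sulfiredoxin, had 5.13 against 3.45 RPKM in the subadult and 5.80 against 4.03 RPKM in the adult, hibernating against active. GCLM, a subunit of the enzyme that starts glutathione synthesis, had log2 changes of 0.50 (subadult) and -0.14 (adult), and GSR, glutathione reductase, -0.27 and 0.01.

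Of 26 target genes of hypoxia-inducible factor, 9 could be read. Of these, 4 were higher in both bears (48.7% of all named genes), 4 lower in both (16.1%) and 1 opposite. Among those lower in both, NDRG1, ENO1 and GAPDH were nearly level in the adult, with log2 changes of -0.0016, -0.05 and -0.09. The ENO1 and GAPDH transcripts stood at only 1.45 to 3.43 RPKM. PFKFB3, which makes the activator of phosphofructokinase, was lower in hibernation, as TFRC was. It stood at 8.38 RPKM in the active and 3.93 RPKM in the hibernating subadult, and at 13.3 and 4.52 RPKM in the active and hibernating adult. Here the active adult, not the active subadult, held the highest level. Limma gave a log2 fold change of -1.23 ± 0.29 (standard error) with an adjusted p of 0.577, and the score was 0.897. All 11 of its transcripts, which share sequence and are not independent, were lower in both bears, with changes between -1.65 and -0.92. ALDOA, aldolase, had log2 changes of 1.19 (subadult) and 0.32 (adult) from a fragment of 479 bases, and BNIP3, a mitophagy receptor, -0.64 and 0.12.

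Iron-sulfur clusters and heme proteins are the main users of iron in muscle mitochondria. Of the 8 genes of iron-sulfur cluster assembly with a transcript, 1 was higher in both bears (48.7% of all named genes). Lower in both were 2 (16.1%), and 5 differed in direction. The states overlapped for all 8, while of all named genes 35.8% lay above and 8.11% below in hibernation. GLRX5, a glutaredoxin of cluster transfer, had log2 changes of -0.17 (subadult) and 0.36 (adult). Among heme proteins, cytochrome c1 (CYC1) stood at 173 to 210.5 RPKM in the 4 libraries. CYGB, cytoglobin, had 8.59 against 3.18 RPKM in the subadult and 5.88 against 3.45 RPKM in the adult, hibernating against active. Limma gave it a log2 fold change of 1.00 ± 0.28 (standard error) with an adjusted p of 0.577. Myoglobin (MB) was not analysed here.

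Levels of other cell types are set beside TFRC and HMOX1 because the samples were whole muscle, in which fewer cells of a type and less RNA per cell cannot be told apart. The active subadult, with the highest TFRC and ALAS1, also held the highest levels of the 3 lipid genes read and of 4 of the 6 connective tissue genes. FASN, fatty acid synthase, had 113 RPKM there and 2.96 to 5.79 RPKM in the other libraries. SCD, a fatty acid desaturase, had 189 RPKM there and 2.79 to 10.1 RPKM elsewhere. COL1A1 and SPARC, genes of the matrix, had 193 and 404 RPKM there, against at most 11.0 and 79.5 RPKM elsewhere. FBN1 and FN1, of the same list, were also highest there. COL3A1 and COL1A2 had their lowest level in that library, with 116 RPKM against 136 to 254 RPKM and 2.59 against 3.15 to 3.99 RPKM. All these levels are of 1 transcript per gene, and other transcripts of the collagens differed. Of 8 COL3A1 transcripts, 3 were higher and 2 lower in hibernation in both bears, and of 2 COL1A2 transcripts, 1 and 1. For COL1A1 the numbers were 3 and 1 of 9.

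Over the 3 fat cell and lipid synthesis genes of 13 that could be read, summed levels were 72.6 and 25.5 RPKM in the hibernating and 422 and 34.8 RPKM in the active subadult and adult. For 6 of 9 connective tissue genes the sums were 358 and 302 RPKM in hibernation and 746 and 209 RPKM when active. The part of these cells and genes in the TFRC difference was not tested. In the adult, with a TFRC change of -1.85, the log2 changes were -1.69 for SCD, -0.86 for FASN, -0.91 for FBN1, 0.07 for LPL, 0.40 for COL1A1, 0.62 for COL3A1 and 0.59 for SPARC. Without the active subadult library, a choice made after seeing the data, the mean of both hibernating libraries was lower than the active adult by 0.98 on the log2 scale, since the hibernating subadult and the active adult were nearly level.

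Macrophages were read by 2 of 15 markers. CD68 had 6.41 and 7.12 RPKM in hibernation and 3.94 and 3.28 RPKM when active in the subadult and the adult, so it was higher in hibernation in both bears, with changes of 0.64 and 1.01. C1QA, a complement gene of macrophages, had 15.7 and 35.5 RPKM in hibernation and 27.4 and 33.5 RPKM when active. The sums of both were 22.1 and 42.6 RPKM in hibernation and 31.4 and 36.7 RPKM when active. CD163, the macrophage receptor for hemoglobin, and all 10 red blood cell markers were not analysed here, so the amount of blood in the biopsies could not be read. Of 10 markers of satellite and dividing cells, 2 were read, MYOD1 with log2 changes of 1.19 (subadult) and 0.89 (adult) and TOP2A with -0.59 and 0.01. For 2 of 8 endothelial genes, FLT1 and PECAM1, the sums were 16.3 and 16.7 RPKM in hibernation and 22.3 and 14.0 RPKM when active. Muscle fibre sums were 9467 and 12938 RPKM in hibernation and 11377 and 13731 RPKM when active. Of the 4 fibre genes read, 3 were lower in hibernation in both bears (16.1% of all named genes) and 1 was higher in both (48.7%). TTN, the titin gene among them, was read by a fragment of 2600 bases. This fragment had 155 RPKM in the hibernating adult and 598 to 794 RPKM in the other libraries. Of 17 TTN transcripts, 6 were lower in hibernation in both bears and 1 was higher in both.

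**Figure D4:**
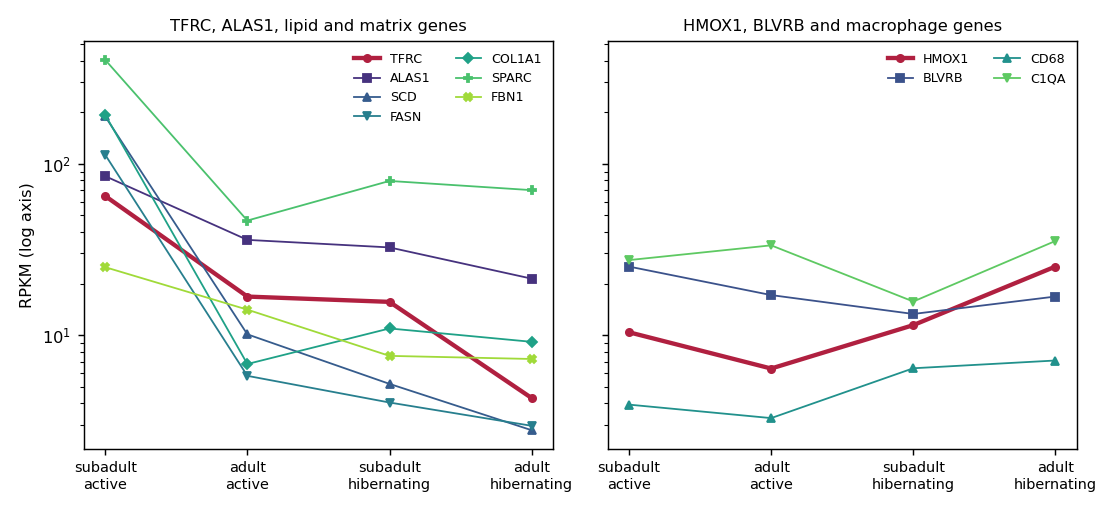
RPKM on a log axis in the 4 libraries for TFRC with ALAS1 and lipid and matrix genes (left) and for HMOX1 with BLVRB and macrophage genes (right). SCD, FASN, COL1A1 and SPARC are highest in the active subadult, where TFRC is also highest (64.9 RPKM). COL3A1 and COL1A2, of the same marker list as COL1A1 and not drawn, are lowest there. CD68 is above its active levels in both hibernating libraries, while C1QA overlaps between the states.

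The named genes with the profile nearest to each member were found by the Euclidean distance between centred log2(RPKM + 0.5) values over the 4 libraries, a description over 4 points. For TFRC these were MIB1 (distance 0.83), a ubiquitin ligase of Notch signaling, ACOT11 (0.84), an acyl-CoA thioesterase, SERPINF1 (0.92), which encodes a secreted serpin, GPAM (1.01), an acyltransferase of triglyceride synthesis, and COL15A1 (1.03), a collagen chain. All 5 were highest in the active subadult and lowest in the hibernating adult, as TFRC was. Their changes in the adult, from -1.62 for MIB1 to -0.47 for COL15A1, were smaller than the -1.85 of TFRC.

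For HMOX1 the nearest profiles lay closer, at 0.32 to 0.41. They were F3, the tissue factor that starts coagulation, ECH1, an enzyme of fatty acid oxidation, CCDC3, FOS, an immediate early transcription factor, and MMP2, a matrix metalloprotease. All 5 had their highest level in the hibernating adult and their lowest in the active adult. FOS had 10.9 RPKM in the hibernating adult and 2.18 to 3.31 RPKM in the other libraries. ECH1 had 136 RPKM there and 50.6 to 76.1 RPKM elsewhere. MYH11, the myosin of smooth muscle, chosen after its values were seen, had 27.6 RPKM in the hibernating adult and 5.44 to 7.02 RPKM elsewhere, and the part of smooth muscle in the HMOX1 level of that library was not tested.

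**Figure D5:**
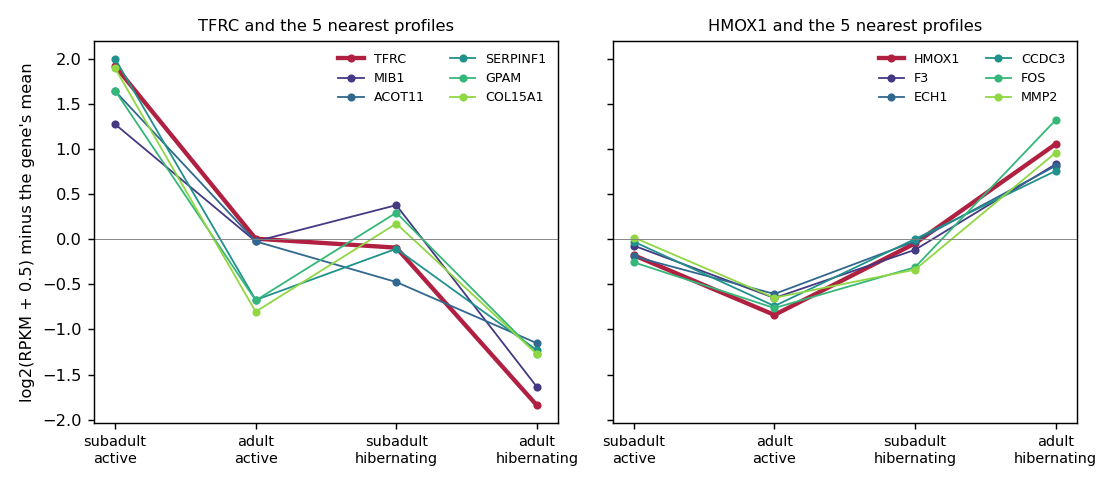
Centred log2(RPKM + 0.5) over the 4 libraries for TFRC (left) and HMOX1 (right), in red, each with the 5 named genes at the smallest distance. The TFRC group is highest in the active subadult and lowest in the hibernating adult, and the HMOX1 group is highest in the hibernating adult.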

How the data were processed

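Single-end Illumina reads of 4 gastrocnemius libraries were used. The authors aligned them with SOAP2, allowing 2 mismatches, to transcripts assembled de novo, named the transcripts by BLAST against human proteins and deposited RPKM and transcript length. The treatment of reads matching more than 1 transcript, and any nuclease normalization of the cDNA, are not given in the sources used here. Columns are named by bear and month, and were assigned to the subadult and the adult through the study's own transcript table, in which 9072 of 9092 transcripts found had the same 4 values under those names.

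Members and lists were chosen with earlier results of these data known. RPKM times length fell on whole reads (within 0.1) for 95.0% to 95.3% of values under 5 RPKM in transcripts under 500 bases, and no count test was run. On log2(RPKM + 0.5), limma 3.58.1 (R 4.3.3, trended prior, Benjamini-Hochberg over 26614 transcripts) compared the states, checked on simulated data. The limma values printed come from a fit without a term for the bear, so they ignore the pairing. With the bear as a block, an alternative, the lowest limma adjusted p over all transcripts was 0.178. The bear pairs the libraries, since both come from 1 animal; deviations between the bears in both states had a Pearson r of 0.36 across transcripts. The score took 1 noise value per transcript and state over all transcripts. Named list genes reached a score of 0.8, differed by 1.5-fold or more, one way, in each bear, or are partner steps of a member (ligand, reductase, ferritin, iron regulatory proteins, heme enzymes), and the 5 nearest profiles to each member were added. Other list genes named, ARID5B and MYH11 were chosen after their values were seen. A few list genes are counted but not reported here by name. Alternatives were pseudocounts, scalings, filters, prior, block, score threshold, summed transcripts and left-out libraries. TFRC and HMOX1 values, and list counts, without the active subadult or the hibernating adult library were added after seeing the data. Python 3.11.15, pandas 2.3.3, numpy 2.4.6, scipy 1.17.1 and matplotlib 3.10.9 were used.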

Additional observations from a re-analysis of the deposited data

How the results depend on the processing

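The mean TFRC change lay between -2.09 and -1.87 under both pseudocounts (0.1 and 1) and both scalings, -2.09 with median-ratio and -2.08 with upper-quartile scaling, and between -2.02 and -1.85 with each bear left out. It was -0.98 without the active subadult library. HMOX1 lay between 0.86 and 1.05 under the pseudocounts and scalings and between 0.13 and 1.90 with each bear left out. Log2 changes were shifted by -0.11 (subadult) and -0.22 (adult) with scaling by the median ratio. This scaling turned the split at a score of 0.8 from 664 higher and 322 lower (67.3% higher) to 392 and 534, and upper-quartile scaling to 398 and 500, while a threshold of 0.9 left 251 of 986 transcripts. Of the 57 list genes, 2 reached 0.8 under each scaling (ALAS1 and PFKFB3) and 1 reached 0.9. Under each scaling, 10 list genes lay above and 15 below the active libraries, with 20.4% and 17.1% of all named genes by median ratio and 22.5% and 15.8% by upper quartile, and the mean change kept its sign for 41 and 43 of the 57. Without the active subadult, 28 lay above and 12 below, with 54.9% and 17.6% of named genes. Limma called 0 transcripts under all other settings, including the replicate block, where 3628 had an unadjusted p under 0.05, and between 0 and 35 with a library left out, the 35 without the hibernating adult. The cause of these shifts was not tested. With 1 library per bear and state, differences between bears and between libraries cannot be told apart.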
